A study of Mus musculus with 20 samples.

Results

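The skin of mice that lack Zfp36 in keratinocytes was compared after imiquimod and after mock treatment. The comparison uses 10 of the 20 arrays of the series, 5 from mock-treated and 5 from imiquimod-treated knockouts, and 1 animal gave each array. These animals were zfp36 fl/fl K14 cre mice, in which the keratin 14 promoter drives Cre recombinase in basal keratinocytes. Skin cells that do not descend from cells with this Cre keep the floxed gene. The other 10 arrays came from Zfp36 fl/fl littermates without Cre, 5 mock-treated and 5 imiquimod-treated, and all 20 animals carry the floxed alleles. Imiquimod was applied to the skin on 5 consecutive days and abdominal skin was taken 4 hours after the last application. The labels used here name neither strain nor sex nor age. For each of 22180 genes the probe set with the highest mean over all arrays was used, and its value is on a scale read as log2, so a difference of 1 is 2-fold.

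Zfp36 encodes tristetraprolin, which binds AU-rich elements of messenger RNAs, many of them for cytokines, and recruits enzymes that shorten the poly(A) tail and lead to decay. Imiquimod is a Toll-like receptor 7 agonist, and repeated application to mouse skin gives a thickened, scaling and inflamed epidermis that is widely used as a model of psoriasis. In that model dendritic cells and lymphocytes release IL-23, IL-17 and IL-22, and keratinocytes answer with antimicrobial proteins, IL-36 cytokines, neutrophil-attracting chemokines and a changed programme of cornification.

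Zfp36 itself read 5.12, 6.84, 7.12, 4.61 and 3.47 in the mock-treated and 5.47, 7.41, 6.12, 7.18 and 5.82 in the imiquimod-treated knockouts, in the order of replicates 1 to 5. The floxed controls averaged 7.46 ± 0.22 and 8.0 ± 0.26 (SD, n = 5), so Zfp36 was 4.08-fold and 3.03-fold lower in knockouts, with no overlap between genotypes in either treatment (exact two-sided permutation test, p = 0.00794 for each, the smallest it can give). The knockout values spread more widely than the controls, and whether the probe set lies in the deleted part is not known here. Within the knockouts the groups overlapped and the difference of 0.97 ± 0.51 (SE) did not pass the test (adjusted p = 0.208, limma). It passed without mock replicate 3 alone, at 1.39 (adjusted p = 0.0432), and without the 4 libraries named below, at 2.05 (adjusted p = 0.00153, limma). The epidermal markers were bright in all 10 knockout arrays: Krt14 read 10.59, 11.05, 10.79, 10.80 and 11.06 after mock and 12, 12.24, 12.03, 12.31 and 12.06 after imiquimod treatment.

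Array medians ran from 4.94 to 5.04, and the standard error of the knockout difference had a median of 0.11, which the number of arrays limits. Some arrays stood apart in tissue content. The mean over 28 genes of the hair follicle and shaft was 9.65, 7.89, 5.95, 9.57 and 9.98 in the mock-treated and 8.96, 5.88, 5.69, 7.33 and 5.61 in the imiquimod-treated knockouts, low in mock replicate 3 and high in imiquimod replicate 1. For genes named by the rule, calls that changed and called values that moved over 1.5 times without 4 libraries are given beside the result. These are mock replicates 2 and 3, the lowest mock arrays in hair genes, and imiquimod replicates 1 and 4, the highest imiquimod arrays. The arrays left ran from 9.57 to 9.98 after mock and from 5.61 to 5.88 after imiquimod, so hair content then went with treatment. In whole skin, fewer cells of a type and less RNA per cell cannot be told apart.

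Imiquimod changed 4605 of the 22180 genes in knockout skin at an adjusted p below 0.05 (limma with Benjamini-Hochberg adjustment over all genes, 5 against 5 arrays). Of these, 2451 genes rose, 11.1% of all genes tested, and 2154 genes fell, 9.71%. The median difference over all genes was -0.002. At least 2-fold changes numbered 443 rises (2.0%) and 225 falls (1.01%), and the rises reached further: 49 genes rose and 7 fell at least 8-fold, and 24 rose at least 16-fold. The 5 arrays of one group did not overlap those of the other for 1588 genes on the higher side (7.16%) and 1448 on the lower side (6.53%). Without the 4 libraries the counts were 1643 higher and 1360 lower, with 3 arrays left in each knockout group. Where the members of a list rose or fell at about 11.1% and 9.71%, the list did not stand apart from all genes. List counts given without the 4 libraries are to be read against 1643 and 1360 of the 22180 genes, which are smaller shares.

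**Figure D1:**
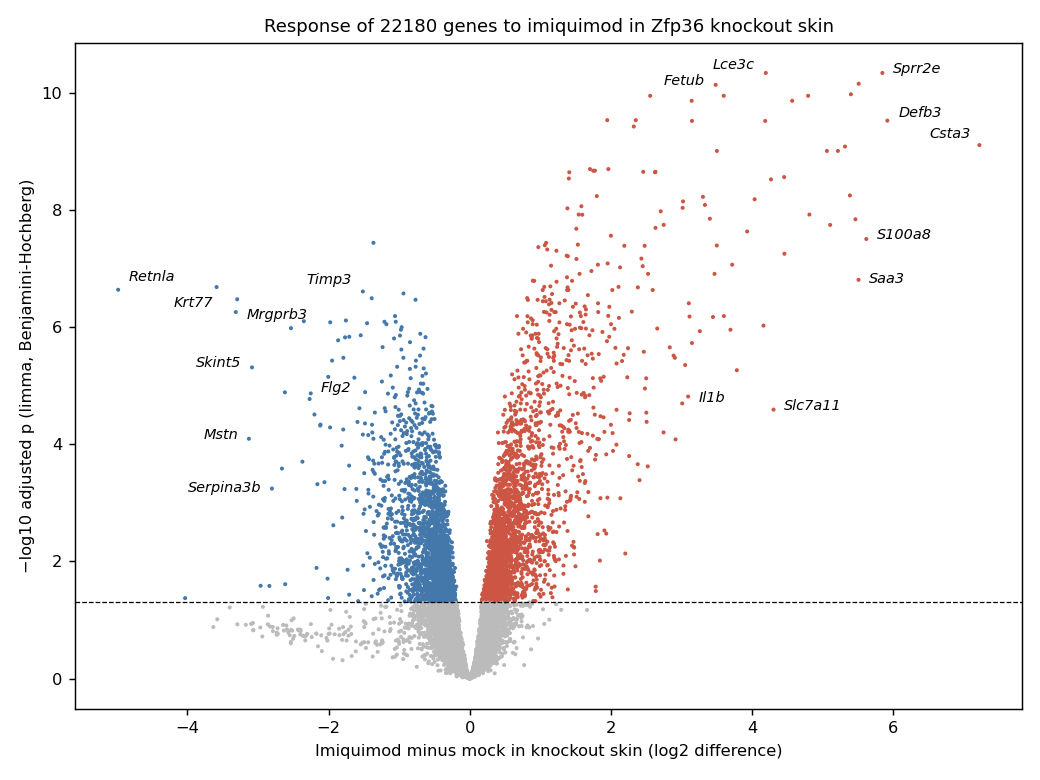
Each of 22180 points is a gene, with the imiquimod minus mock difference in knockout skin on the horizontal axis (log2) and the negative log10 of limma's adjusted p on the vertical axis; red genes rose, blue genes fell, grey genes did not pass, and the dashed line is the threshold of 0.05. The rises extend to 7.22 (Csta3), the falls to -4.98 (Retnla), and a grey band of genes with differences near -2 to -3 and large spread lies at the lower left.

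Genes of the cornified envelope, the protein shell that keratinocytes cross-link under their membrane as they die, were among the largest rises. Of 11 small proline-rich proteins measured, which bridge the other envelope proteins, 8 rose and none fell, with a median difference of 3.10, against 11.1% and 9.71% of all genes. Sprr2e, the highest of them, read 4.20, 4.02, 4.36, 3.97 and 4.29 in the mock-treated and 9.69, 10.37, 9.65, 10.31 and 10.05 in the imiquimod-treated knockouts. The 5 imiquimod arrays lay within a range of less than 1 and far above all mock arrays, a rise of 5.85 ± 0.28 (SE), or 57.5-fold (adjusted p = 4.63e-11, limma). Sprr2d rose by 5.46, Sprr2b by 5.06, Sprr1b by 4.81 and Sprr2g by 4.46. Sprr1a, Sprr3 and Sprr4 did not pass, at 0.61, -0.04 and -0.93. The Sprr2 genes are close in sequence, and signal may pass between their probe sets.

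The promoters of the 4 highest Sprr genes are shown because these neighbouring genes of mouse chromosome 3 rose together. Each is the 250 bases before the transcription start in RefSeq, build GRCm38.p6, on the strand of the gene, 5′ to 3′. Capitals mark the AP-1 motif TGANTCA, searched on both strands. Sprr2e lies at chr3:92351893-92352142 (+ strand), Sprr2d at chr3:92338890-92339139 (+ strand), Sprr2b at chr3:92316455-92316704 (+ strand) and Sprr1b at chr3:92438780-92439029 (- strand).
Sprr2e: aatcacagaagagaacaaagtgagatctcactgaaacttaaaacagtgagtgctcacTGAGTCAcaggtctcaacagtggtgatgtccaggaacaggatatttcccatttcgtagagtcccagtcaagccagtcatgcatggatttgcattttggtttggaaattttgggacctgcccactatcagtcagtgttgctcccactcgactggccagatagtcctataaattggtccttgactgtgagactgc
Sprr2d: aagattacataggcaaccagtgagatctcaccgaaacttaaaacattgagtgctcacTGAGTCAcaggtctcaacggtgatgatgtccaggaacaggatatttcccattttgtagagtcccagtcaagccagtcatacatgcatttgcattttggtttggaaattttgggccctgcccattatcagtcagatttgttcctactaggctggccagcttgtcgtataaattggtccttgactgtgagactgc
Sprr2b: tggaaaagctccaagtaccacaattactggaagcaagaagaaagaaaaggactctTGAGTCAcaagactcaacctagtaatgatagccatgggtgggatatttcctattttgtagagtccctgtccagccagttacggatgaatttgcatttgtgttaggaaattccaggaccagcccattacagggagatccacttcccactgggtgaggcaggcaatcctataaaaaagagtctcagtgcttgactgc
Sprr1b: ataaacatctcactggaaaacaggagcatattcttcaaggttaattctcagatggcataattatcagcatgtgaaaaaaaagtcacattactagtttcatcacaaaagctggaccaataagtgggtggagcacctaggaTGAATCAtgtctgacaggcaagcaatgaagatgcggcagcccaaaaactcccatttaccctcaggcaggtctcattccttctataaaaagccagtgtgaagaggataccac
The motif starts 193 bases before the start in Sprr2e and Sprr2d, 195 in Sprr2b and 111 in Sprr1b. Among the 20 largest rises, 16 genes had a promoter in the table and 4 of these held the motif (25%), which are these Sprr genes. It was found in 2 of 18 promoters among the 20 largest falls (11.1%) and in 6.48% of the 16990 matched promoters of all genes tested. The Sprr genes share sequence, so these 4 matches are not independent of each other. The STAT motif TTCNNNGAA was in 1 of the 16 promoters of rising genes (6.25%) against 6.85% of all. The NF-kB consensus was in 0 of the 16 against 7.69%. The motifs overlap no other motif searched in these 4 windows, and a match describes letters, not a bound site.

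All 6 genes of the Lce3 cluster rose, with a median of 4.38. They encode late cornified envelope proteins of the kind seen in wounded and psoriatic epidermis. Lce3c read 6.47, 6.42, 6.54, 6.24 and 6.65 in the mock-treated and 10.37, 10.83, 10.51, 10.97 and 10.61 in the imiquimod-treated knockouts. Each group was narrow and the gap between them was 4.19 ± 0.19 (SE; adjusted p = 4.63e-11, limma). Lce3e rose by 5.40, Lce3f by 5.22 and Lce3d by 4.57. Of 11 Lce1 genes, which belong to the envelope of unperturbed skin, 6 rose and 1 fell, with a median of 0.81. Lce1e rose by 2.50, while Lce1m read 8.68, 9.65, 10.03, 9.12 and 8.96 after mock and 5.60, 6.93, 7.48, 6.78 and 7.80 after imiquimod, a difference of -2.37 ± 0.39 (adjusted p = 1.99e-04, limma), which was -1.52 without the 4 libraries and -1.08 for the mean of its probe sets.

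Of 18 further envelope and filaggrin-type proteins, 11 rose and 2 fell, with a median of 0.74. Rptn, which encodes repetin, rose by 3.93 ± 0.31, from 7.70, 7.58, 6.55, 7.79 and 8.01 to 11.27, 11.76, 11.84, 10.82 and 11.59 (adjusted p = 2.35e-08, limma). Flg, the source of filaggrin and of the amino acids that moisten the horny layer, rose by 2.23 ± 0.28 (adjusted p = 7.23e-06), and Casp14, the protease that helps to degrade filaggrin, rose by 2.16 ± 0.25 (adjusted p = 3.81e-06). The related gene Flg2 went the other way: it read 9.62, 10.21, 10.29, 9.49 and 9.42 in the mock-treated and 6.66, 7.21, 8.07, 7.20 and 8.55 in the imiquimod-treated knockouts, a difference of -2.27 ± 0.30 with no overlap (adjusted p = 1.70e-05, limma). Scel, for sciellin, was the other member that fell, at -0.70 ± 0.08. Without the 4 libraries 5 members fell, and Tchh and Tchhl1, which the hair follicle expresses, had been at -2.64 and -2.49 with wide spread in all 10 arrays.

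Protease inhibitors and proteases of the epidermis rose with the envelope genes. The largest rise of all genes was in Csta3, a stefin, an inhibitor of cysteine proteases of the cathepsin type. It read 3.57, 2.59, 3.34, 2.43 and 4.53 in the mock-treated and 10.41, 10.95, 10.05, 10.90 and 10.25 in the imiquimod-treated knockouts. The mock values lay below the array medians and varied by about 2, while the imiquimod arrays stood within 1 of each other. The difference was 7.22 ± 0.45 (SE), or 149-fold (adjusted p = 7.88e-10, limma), and with no detection calls the fold of a gene this dim is uncertain. Of 12 stefins and cystatins 7 rose and none fell, with a median of 2.04. Stfa2l1 rose by 5.51 ± 0.27, Cstdc6 by 4.45 and Stfa1 by 4.04. The stefins lie in a cluster of close copies, and a transcript of one may be read by the probe set of another.

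The promoters of Csta3 and of Saa3, an acute-phase gene described below, are shown for the C/EBP motif TTGCNNAA, in capitals, which 6 of the 16 matched promoters of the largest rises held (37.5%). Both are 250 bases before the start in RefSeq, GRCm38.p6, at chr16:36210153-36210402 (+ strand) and chr7:46715677-46715926 (- strand), searched on both strands.
Csta3: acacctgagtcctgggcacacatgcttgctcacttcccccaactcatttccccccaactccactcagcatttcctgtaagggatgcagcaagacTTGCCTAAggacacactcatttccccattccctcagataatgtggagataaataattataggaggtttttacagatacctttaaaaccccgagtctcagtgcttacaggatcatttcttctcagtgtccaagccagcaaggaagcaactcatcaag
Saa3: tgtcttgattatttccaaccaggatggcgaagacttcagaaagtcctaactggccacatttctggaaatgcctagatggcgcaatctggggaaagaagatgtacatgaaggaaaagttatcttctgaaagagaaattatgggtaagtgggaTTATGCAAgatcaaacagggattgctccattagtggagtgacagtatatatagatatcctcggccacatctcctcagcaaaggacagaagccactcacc
The other 4 were Defb3, Lce3f, S100a9 and Slc7a11. The motif was in 5 of the 18 matched promoters of the largest falls (27.8%) and in 9.11% of all. Members of a family share sequence, so the 16 promoters are not independent.

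Of 11 clade B serpins 5 rose and 1 fell, with a median of 0.17. Serpinb3a, an inhibitor of serine and cysteine proteases, read 5.18, 3.87, 5.75, 3.80 and 3.71 and 9.77, 10.08, 9.82, 9.36 and 9.86 and rose by 5.32 ± 0.33 (adjusted p = 8.35e-10, limma). Serpinb12 rose by 2.41 ± 0.43, and Serpinb13 fell by 0.65 ± 0.16 (difference -0.43 with hair genes as a covariate). Of 17 kallikreins and other genes of epidermal protease control 13 rose and none fell, with a median of 0.95. Kallikreins are serine proteases that cut the desmosomes of the outermost layer. Klk13 read 7.17, 5.77, 5.53, 5.99 and 6.17 after mock and 10.29, 10.57, 10.13, 10.32 and 10.25 after imiquimod treatment, a rise of 4.19 ± 0.24, in which mock replicate 1 was the highest of its group and still below every imiquimod array (adjusted p = 3.05e-10, limma). Klk6 rose by 3.50 ± 0.22 and Klk9 by 3.30 ± 0.24.

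The plot of 16 genes in the 10 knockout arrays shows how far the groups lay apart.

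**Figure D2:**
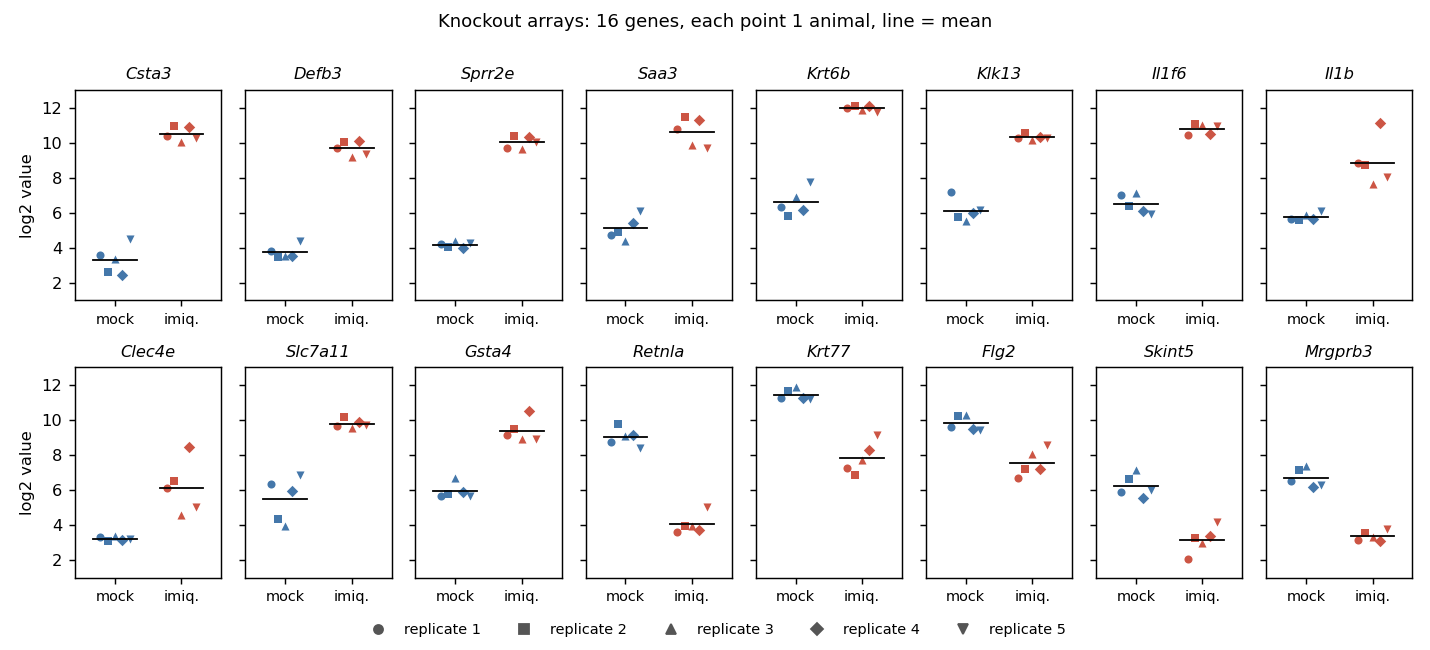
Log2 values of 16 genes (one panel each) in the 5 mock-treated (blue) and 5 imiquimod-treated (red) knockout arrays; marker shapes give replicates 1 to 5 and black lines the group means. The groups do not overlap in any panel, the first 11 genes are higher and Retnla, Krt77, Flg2, Skint5 and Mrgprb3 lower after imiquimod, and replicate 4 is the highest imiquimod array for Il1b (11.10) and Clec4e (8.45).

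Keratins, the intermediate filament proteins of epithelium, changed by type. Krt6a, Krt6b and Krt16, keratins of stressed and thickened epidermis, rose. Krt6b read 6.30, 5.81, 6.89, 6.18 and 7.76 in the mock-treated and 11.99, 12.10, 11.88, 12.12 and 11.78 in the imiquimod-treated knockouts, and Krt16 read 7.15, 9.23, 6.79, 7.43 and 7.78 and 11.60, 12.04, 11.72, 12.15 and 11.68. The imiquimod arrays were tight for both genes, and the rises were 5.39 ± 0.38 (adjusted p = 5.71e-09) and 4.16 ± 0.44 (adjusted p = 9.50e-07, limma). Krt6a rose by 2.52 ± 0.43. Of the 10 stress and simple epithelial keratins these 3 rose and 2 fell, with a median of -0.17. Krt23 fell by 0.90 ± 0.14. The fall of Krt8, a keratin of simple epithelia, was 0.74 ± 0.25 and did not pass without any 1 of mock replicates 3 and 4 and imiquimod replicates 1, 2, 4 and 5 (from adjusted p = 0.0501 to adjusted p = 0.103), nor without the 4 libraries (adjusted p = 0.130).

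Of 10 keratins of the basal and upper epidermis 3 rose and 2 fell, with a median of 0.35, and 5 rose without the 4 libraries. Krt14, the partner of keratin 5 in basal cells, rose by 1.27 ± 0.12 (adjusted p = 3.95e-07), and Krt1, of the suprabasal layers, rose by 1.93 ± 0.31 (adjusted p = 1.49e-04, limma). Krt78 rose by 0.94 ± 0.27, a call that was lost without imiquimod replicate 3 (adjusted p = 0.0574) and without imiquimod replicate 5 (adjusted p = 0.0579); it was 1.66 without the 4 libraries and 0.48 with hair genes as a covariate (adjusted p = 0.0631). The falls were large. Krt77 read 11.24, 11.64, 11.86, 11.26 and 11.19 in the mock-treated and 7.25, 6.86, 7.69, 8.30 and 9.16 in the imiquimod-treated knockouts, a fall of 3.59 ± 0.33 (adjusted p = 2.09e-07, limma). Krt15, a keratin of resting basal cells and of the follicle bulge, read 9.87, 11.02, 10.47, 10.28 and 10.20 and 7.75, 8.39, 8.85, 7.02 and 8.57 and fell by 2.25 ± 0.29 (adjusted p = 1.36e-05, limma). Neither pair of groups overlapped.

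Lipid genes of the permeability barrier rose together. Of 25 genes of ceramide synthesis and transport 20 rose and none fell, with a median of 0.97. Sdr9c7, needed to bind ceramides to the envelope, read 8.14, 8.10, 8.43, 7.66 and 7.89 and 9.93, 10.35, 10.19, 10.18 and 10.22 and rose by 2.13 ± 0.19 (adjusted p = 9.63e-08, limma). Smpd3, a sphingomyelinase, rose by 2.0 ± 0.16, and Degs2, a ceramide hydroxylase, by 1.67 ± 0.16. Of 19 genes of cholesterol synthesis 18 rose and none fell, with a median of 0.98. Hsd17b7 read 7.38, 6.81, 7.29, 7.04 and 7.24 in the mock-treated and 8.59, 8.97, 8.82, 9.02 and 9.11 in the imiquimod-treated knockouts, a rise of 1.75 ± 0.12 (adjusted p = 2.16e-09, limma). Lss, which closes the sterol rings, rose by 1.61 ± 0.17, Cyp51 by 1.58 ± 0.12, and Insig1, which restrains the pathway, stood at -0.05 and did not pass.

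Of 22 enzymes of eicosanoid metabolism 10 rose and 1 fell, with a median of 0.42. Pla2g4e, a cytosolic phospholipase A2, read 6.35, 5.89, 5.90, 6.25 and 6.44 and 9.28, 9.53, 9.14, 9.49 and 9.11, a rise of 3.14 ± 0.17 with no overlap (adjusted p = 1.38e-10, limma). Ptgs2, the inducible cyclooxygenase, read 5.57, 5.57, 6.40, 5.70 and 6.21 after mock and 7.53, 8.45, 6.18, 9.50 and 6.85 after imiquimod treatment. Its imiquimod values were spread over more than 3, with replicate 4 highest and replicate 3 inside the mock range, and the mean rise was 1.81 ± 0.41 (adjusted p = 0.00343). Alox12e, an epidermal lipoxygenase, fell by 3.29 ± 0.32, from 8.15, 9.69, 8.42, 9.16 and 9.10 to 5.26, 5.75, 5.77, 5.10 and 6.17 (adjusted p = 3.37e-07, limma).

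Genes of sugar, amino acid and redox metabolism rose in part. Slc7a11, the cystine importer that feeds glutathione synthesis, read 6.33, 4.36, 3.95, 5.96 and 6.83 in the mock-treated and 9.65, 10.19, 9.53, 9.87 and 9.71 in the imiquimod-treated knockouts. The mock values varied by almost 3 and the imiquimod values by less than 1, and the rise was 4.30 ± 0.59 (adjusted p = 2.58e-05, limma). Of 23 genes of amino acid transport and the integrated stress response 13 rose and 1 fell, with a median of 0.39: Slc6a14 rose by 1.38 ± 0.23, the serine synthesis gene Psat1 by 1.37 ± 0.16, and Slc1a4 fell by 0.78 ± 0.14. Of 25 glycolytic and hypoxia-responsive genes 14 rose and 1 fell, with a median of 0.52. The glucose transporter gene Slc2a1 read 7.94, 8.55, 8.27, 8.11 and 8.13 and 9.88, 10.16, 9.88, 10.19 and 9.98 and rose by 1.82 ± 0.18 (adjusted p = 3.95e-07, limma), or by 1.18 in the mean of its probe sets. The muscle isoform Pfkm fell by 1.04 ± 0.25, a call lost without the 4 libraries (adjusted p = 0.221), in arrays in which muscle markers were lower as described below.

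Of 22 antioxidant genes 9 rose and 2 fell, with a median of 0.20, and 5 rose without the 4 libraries. Gsta4, which conjugates lipid aldehydes to glutathione, read 5.63, 5.76, 6.68, 5.89 and 5.63 after mock and 9.11, 9.48, 8.92, 10.52 and 8.90 after imiquimod treatment, a rise of 3.47 ± 0.31 (adjusted p = 1.24e-07, limma). Gpx1 rose by 1.08 ± 0.19 and Nfe2l2, which encodes the regulator NRF2, by 0.88 ± 0.10. Mt4, a metallothionein of stratified epithelium, fell by 2.17 ± 0.60 with overlapping arrays (adjusted p = 0.0129), with a difference of -3.54 without the 4 libraries and -1.19 with hair genes as a covariate. Cat, for catalase, fell by 0.79 ± 0.21 and lost its call without the 4 libraries (adjusted p = 0.397). Of 27 genes of oxidative phosphorylation 8 rose and none fell, with a median of 0.19, among them Ndufa4 at 0.84 and Cyc1 at 0.66. Of 24 genes of retinoid and xenobiotic metabolism 9 rose and 3 fell, with a median of 0.06. Aadacl3, an arylacetamide deacetylase-like gene, rose by 1.98 ± 0.19, and Rbp4, the plasma retinol carrier, fell by 1.02 ± 0.23, which did not pass without the 4 libraries (adjusted p = 0.0827).

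Growth and cell division genes rose, and these rises depended on the arrays used. Of 25 ribosome biogenesis genes 23 rose and none fell, with a median of 0.66; without the 4 libraries 9 rose and the median was 0.46. Gnl3, for nucleostemin, read 8.21, 7.52, 7.57, 7.46 and 7.77 and 8.86, 8.84, 8.71, 8.99 and 8.35 and rose by 1.04 ± 0.17 (adjusted p = 1.81e-04, limma). Of 31 DNA replication genes 27 rose and none fell, with a median of 0.63; without the 4 libraries 9 rose at a median of 0.56. E2f8, a transcription factor of the cell cycle, rose by 1.47 ± 0.25 with no overlap, and Mcm5, of the replicative helicase, read 7.46, 6.06, 6.41, 6.06 and 6.69 after mock and 7.34, 7.92, 7.50, 7.94 and 7.70 after imiquimod treatment. Mock replicate 1 reached into the imiquimod range of Mcm5, and the rise of 1.14 ± 0.25 (adjusted p = 0.00270) did not pass without the 4 libraries (adjusted p = 0.0628, limma).

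Of 33 mitosis genes 26 rose and none fell, with a median of 1.01. Without the 4 libraries 2 rose, no more than the share of all genes in that setting, at a median of 0.61. Hmmr, a spindle protein, read 5.95, 4.49, 4.34, 4.59 and 5.04 in the mock-treated and 6.15, 6.09, 5.94, 6.68 and 5.88 in the imiquimod-treated knockouts. Mock replicate 1 was the highest mock array for it, as for Mcm5, and lay among the imiquimod arrays. Hmmr rose by 1.27 ± 0.28 (adjusted p = 0.00255), and without the 4 libraries its difference was 0.78 (adjusted p = 0.153, limma). In the floxed controls none of the 33 passed, at a median of 0.24. The difference between the responses of the genotypes passed for none of the 33. Of 22 genes of protein folding and endoplasmic reticulum stress 17 rose and 1 fell, with a median of 0.40, and 10 rose without the 4 libraries. Hspd1, a mitochondrial chaperonin, rose by 0.83 ± 0.14 and Creld2 by 0.60 ± 0.10.

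**Figure D3:**
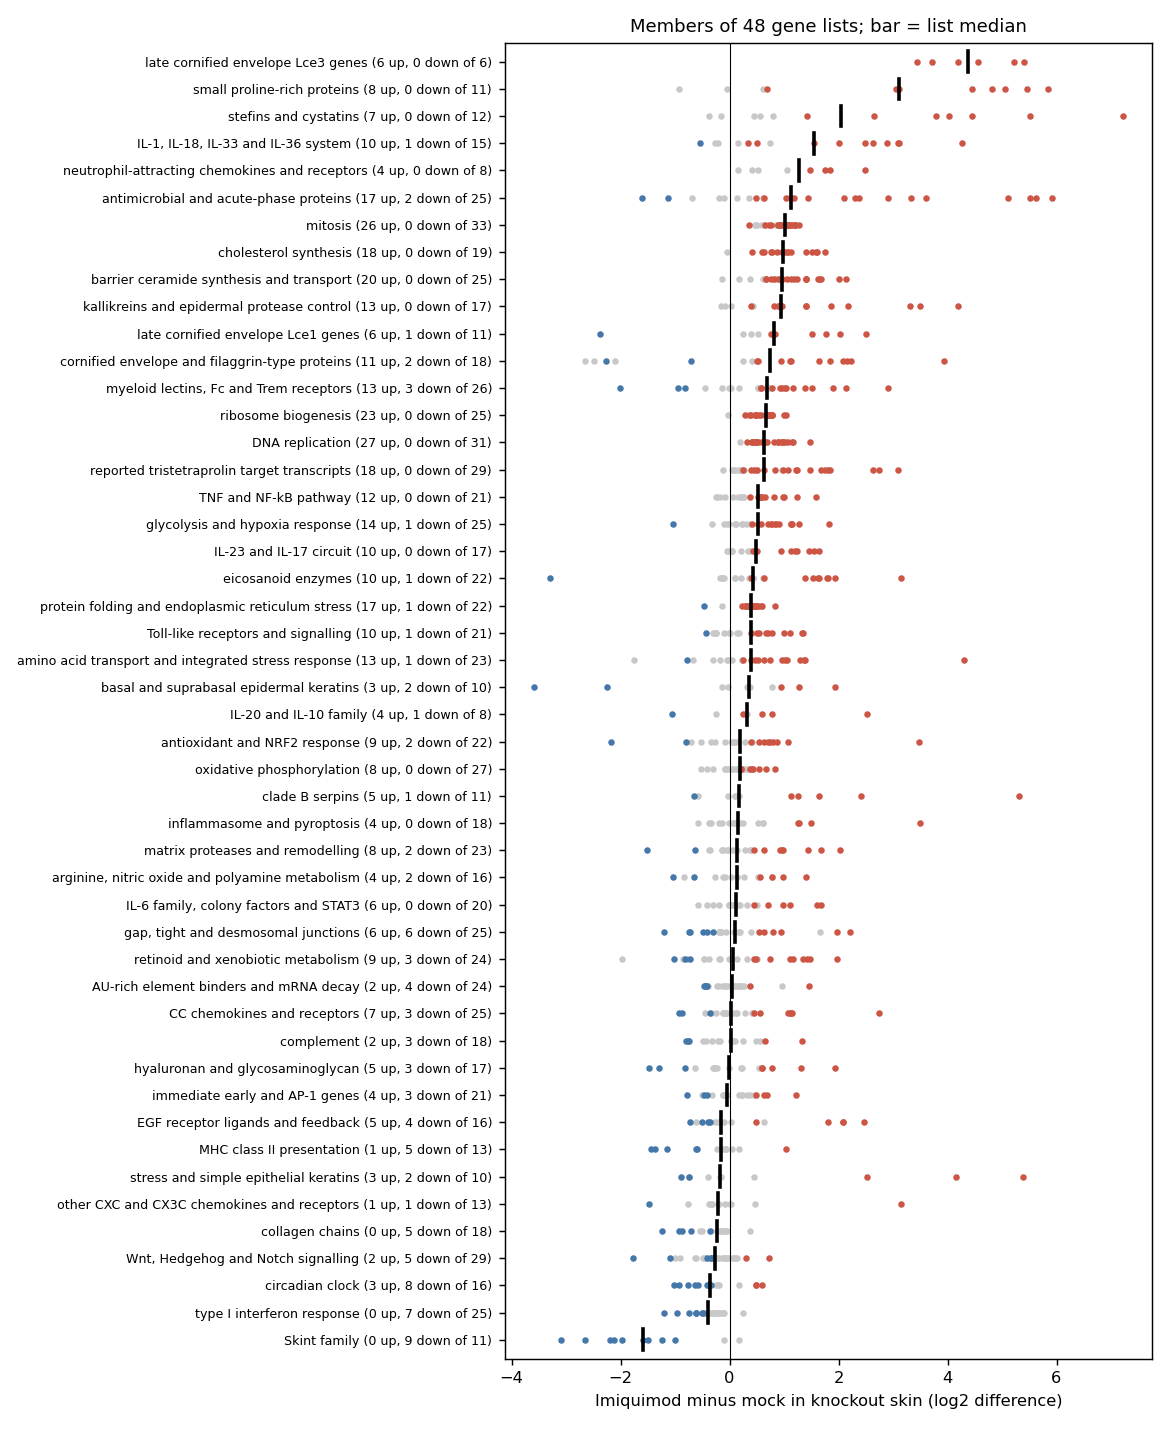
Differences between imiquimod-treated and mock-treated knockouts (log2, horizontal axis) for the measured members of 48 gene lists, sorted by list median (black bars); red members rose, blue fell and grey did not pass. The Lce3, small proline-rich and stefin lists lie furthest to the right, with medians of 4.38, 3.10 and 2.04, and the Skint family lies furthest to the left at -1.59.

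Antimicrobial and acute-phase genes held several of the largest rises: 17 of 25 rose and 2 fell, with a median of 1.13. Defb3, a beta-defensin of inflamed skin, read 3.83, 3.49, 3.54, 3.54 and 4.36 in the mock-treated and 9.71, 10.02, 9.19, 10.08 and 9.34 in the imiquimod-treated knockouts, a rise of 5.92 ± 0.34, or 60.4-fold (adjusted p = 3.02e-10, limma). S100a8 and S100a9 encode the subunits of calprotectin, a metal-binding protein made by neutrophils and by activated keratinocytes. S100a8 read 4.83, 4.52, 4.67, 4.96 and 6.30 and 10.80, 10.94, 10.17, 10.96 and 10.50, with mock replicate 5 the highest of the mock arrays, and rose by 5.62 ± 0.45 (adjusted p = 3.16e-08). S100a9 rose by 5.11 ± 0.40. Saa3, a serum amyloid A gene expressed outside the liver, read 4.75, 4.89, 4.39, 5.40 and 6.11 after mock and 10.77, 11.48, 9.89, 11.27 and 9.67 after imiquimod, and rose by 5.51 ± 0.50 (adjusted p = 1.57e-07, limma). The falls were in Wfdc21, at -1.60 ± 0.31 (-1.01 with muscle genes as a covariate), and Lyz1, a lysozyme, at -1.12 ± 0.23, and the latter was lost without the 4 libraries (adjusted p = 0.122).

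Among the cytokines, the IL-1 and IL-36 family moved furthest. Of 15 measured genes of this system 10 rose and 1 fell, with a median of 1.54. Il1f6, which encodes IL-36 alpha, read 7.04, 6.40, 7.13, 6.12 and 5.93 in the mock-treated and 10.43, 11.06, 10.99, 10.52 and 10.96 in the imiquimod-treated knockouts. All 5 imiquimod arrays were more than 3 above the highest mock array, with a difference of 4.27 ± 0.29 (adjusted p = 3.04e-09, limma). Il1f8, for IL-36 beta, rose by 3.11 ± 0.32. Il1b read 5.63, 5.60, 5.90, 5.62 and 6.09 after mock and 8.82, 8.72, 7.64, 11.10 and 8.03 after imiquimod treatment, and imiquimod replicate 4 stood more than 2 above the other arrays of its group. The rise of Il1b was 3.09 ± 0.41 (adjusted p = 1.54e-05) and without that array 2.53 (adjusted p = 1.43e-07, limma). The 1 fall was in the IL-18 receptor gene Il18r1, at -0.54 ± 0.18, and it did not pass without any 1 of mock replicates 2 and 3 and imiquimod replicates 1, 2, 4 and 5 (from adjusted p = 0.0542 to adjusted p = 0.116), nor without the 4 libraries (adjusted p = 0.435).

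Of 17 genes of the IL-23 and IL-17 circuit 10 rose and none fell, with a median of 0.49. Il17f, made by gamma delta T cells, helper T cells and innate lymphoid cells, read 5.14, 5.21, 4.95, 5.21 and 5.20 in the mock-treated and 6.88, 7.34, 6.20, 7.02 and 6.50 in the imiquimod-treated knockouts. The groups were separate and the rise was 1.65 ± 0.16 (adjusted p = 5.02e-07, limma). Il17c, a keratinocyte cytokine that acts back on keratinocytes, read 4.48, 4.87, 4.36, 4.65 and 4.72 and 6.08, 6.58, 5.83, 6.10 and 6.24 and rose by 1.55 ± 0.18 (adjusted p = 2.40e-06). Zc3h12a, which encodes the RNase regnase-1, an inhibitor of IL-17 signalling, rose by 1.46 ± 0.14. The cytokine genes Il22 and Il17a were at 0.21 (not passing) and 0.51 (passing).

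Of 8 genes of the IL-20 and IL-10 family 4 rose and 1 fell, with a median of 0.31, and without the 4 libraries 2 rose and none fell. Il19, a cytokine of the IL-20 subfamily that acts on keratinocytes, read 4.32, 3.85, 4.15, 4.54 and 4.35 in the mock-treated and 7.16, 7.26, 6.13, 7.31 and 5.98 in the imiquimod-treated knockouts and rose by 2.53 ± 0.23 (adjusted p = 1.24e-07, limma). Il20 rose by 0.78 ± 0.17. Without imiquimod replicate 1 alone, 2 members rose, since Il24, at 0.59 ± 0.18, no longer passed (adjusted p = 0.0664), nor did Il10. Il24 also did not pass without any 1 of mock replicates 1 and 2 and imiquimod replicates 2 and 4 (from adjusted p = 0.0511 to adjusted p = 0.0788), or without the 4 libraries (adjusted p = 0.468). Il20ra, a receptor chain for these cytokines, fell by 1.06 ± 0.29 and lost its call without the 4 libraries (adjusted p = 0.176).

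Of 20 genes of the IL-6 family, colony-stimulating factors and STAT3 signalling 6 rose and none fell, with a median of 0.12. Il6 read 3.21, 3.29, 3.55, 3.15 and 3.35 after mock and 4.95, 6.58, 4.01, 5.37 and 4.04 after imiquimod treatment, with replicate 2 highest, and rose by 1.68 ± 0.31 (adjusted p = 6.58e-04, limma). Csf3r, the granulocyte colony-stimulating factor receptor of neutrophils, rose by 1.60 ± 0.28, and Osmr, the oncostatin M receptor, by 1.12 ± 0.15.

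Of 8 neutrophil-attracting chemokines and their receptors 4 rose and none fell, with a median of 1.27. The ligand gene Cxcl1 read 4.79, 4.80, 5.29, 5.11 and 5.34 in the mock-treated and 6.96, 7.25, 6.17, 7.23 and 6.44 in the imiquimod-treated knockouts, a rise of 1.74 ± 0.22 with no overlap (adjusted p = 7.48e-06, limma). Cxcl3 read 3.11, 2.86, 2.53, 2.51 and 2.58 and 4.38, 3.60, 3.26, 7.43 and 4.14. Imiquimod replicate 4 was about 3 above the next array, and the rise of Cxcl3 was 1.84 ± 0.49 with it (adjusted p = 0.00971) and 1.13 without it (adjusted p = 4.26e-04, limma), and 0.93 without the 4 libraries. In a fit of the 10 knockout arrays alone Cxcl3 did not pass (adjusted p = 0.0584, limma). Cxcr2, the receptor for these ligands on neutrophils, read 4.92, 5.13, 5.22, 5.52 and 5.64 after mock and 7.33, 7.72, 7.55, 8.48 and 7.74 after imiquimod and rose by 2.48 ± 0.20 (adjusted p = 4.12e-08).

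Of 25 CC chemokines and receptors 7 rose and 3 fell, at a median of 0.03, and 1 fell without the 4 libraries. Ccl3, which attracts monocytes and neutrophils, read 3.87, 3.89, 4.16, 4.15 and 3.49 in the mock-treated and 6.25, 6.38, 5.30, 8.77 and 6.59 in the imiquimod-treated knockouts, highest in replicate 4, and rose by 2.75 ± 0.41 (adjusted p = 6.31e-05, limma). Ccl7 rose by 1.14 ± 0.28. Ccr1, a receptor for Ccl3 and Ccl7, was called at 1.15 ± 0.38 (adjusted p = 0.0348) but not without any 1 of mock replicates 1, 2, 4 and 5 and imiquimod replicates 1 and 2 (from adjusted p = 0.0507 to adjusted p = 0.0792); it was 0.64 without imiquimod replicate 4 and 0.73 without the 4 libraries. Ccl8 fell by 0.93 ± 0.20 and the eotaxin gene Ccl24 by 0.88 ± 0.19, the latter not without the 4 libraries (adjusted p = 0.189). Of 13 other chemokines and receptors 1 rose and 1 fell, no more than the share of all genes, with a median of -0.21. Cxcl13, a B cell attractant, read 5.16, 5.40, 5.32, 5.26 and 5.59 and 9.77, 9.47, 7.79, 7.87 and 7.57, highest in imiquimod replicates 1 and 2, and rose by 3.15 ± 0.35 (adjusted p = 1.88e-06, limma). Cxcl14, which normal keratinocytes make, fell by 1.47 ± 0.33 with overlapping arrays (adjusted p = 0.00304), with a difference of -2.33 without the 4 libraries and -0.96 with hair genes as a covariate.

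In the signalling path from the drug, Tlr7, its receptor, read 4.47, 5.40, 5.23, 4.38 and 4.57 and 4.15, 4.53, 4.52, 4.73 and 4.56 and did not pass (-0.31 ± 0.23, adjusted p = 0.394, limma). The difference was 0.06 without the 4 libraries and 0.20 with muscle genes as a covariate, neither passing, and -0.62 with hair genes as a covariate (adjusted p = 0.0194, limma), so no direction is given. Of 21 Toll-like receptors and signalling genes 10 rose and 1 fell, with a median of 0.39. Tlr13, a receptor for bacterial RNA, rose by 1.34 ± 0.20, Cd14, a co-receptor for lipopolysaccharide, by 1.33 ± 0.38, and Ly96, its partner on Tlr4, by 1.11 ± 0.21. Cd14 was highest in imiquimod replicate 4, its rise was 0.86 without that array (adjusted p = 0.0272), and it did not pass in a fit of the 10 knockout arrays alone (adjusted p = 0.0567, limma). Tlr3 fell by 0.43 ± 0.10, and not without the 4 libraries (adjusted p = 0.126). Of 21 genes of the TNF and NF-kB pathway 12 rose and none fell, with a median of 0.52. Tnf read 5.74, 5.80, 5.90, 6.17 and 5.74 in the mock-treated and 6.63, 7.10, 6.83, 7.32 and 6.38 in the imiquimod-treated knockouts, a rise of 0.98 ± 0.14 in groups that did not overlap (adjusted p = 5.79e-05, limma). Tnfaip2 rose by 1.59 ± 0.19 and Bcl3, a nuclear partner of NF-kB, by 1.23 ± 0.11.

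Of 21 immediate early and AP-1 genes 4 rose and 3 fell, with a median of -0.05. Ier3, a TNF-induced early gene, rose by 1.22 ± 0.17, Junb by 0.70 ± 0.14 and Myc by 0.63 ± 0.11. Dusp4, a phosphatase of MAP kinases, fell by 0.78 ± 0.16 with overlapping arrays. Of 29 measured transcripts reported in other studies as tristetraprolin targets 18 rose and none fell, with a median of 0.63. These include Il1b, Ccl3 and Il1a, at 3.09, 2.75 and 2.63, and the list shares most of its rising members with the cytokine, chemokine and early-gene lists. In the floxed controls 7 of the 29 rose and none fell, at a median of 0.35. The difference between the responses of the genotypes passed for none of the 29. Of 24 AU-rich element binders and decay factors 2 rose and 4 fell, at a median of 0.04, close to the shares of all genes. The paralogs Zfp36l1 and Zfp36l2 stood at 0.19 ± 0.08 (adjusted p = 0.101) and -0.05 ± 0.11 (adjusted p = 0.837) and did not pass; Zfp36l1 passed without imiquimod replicate 3 (adjusted p = 0.0433), and Zfp36l2 was at 0.07 without the 4 libraries. Parn, a poly(A) ribonuclease, fell by 0.47 ± 0.09 and Rc3h1, for roquin-1, by 0.45 ± 0.09.

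Myeloid genes rose in part and were highest in 1 imiquimod array. The mean over 18 neutrophil markers was 4.57, 4.63, 4.89, 4.67 and 4.78 in the mock-treated and 6.24, 6.29, 6.06, 7.06 and 6.02 in the imiquimod-treated knockouts, highest in imiquimod replicate 4. Of these markers 10 rose and none fell, with a median of 1.47. The receptor genes Cxcr2 and Csf3r rose by 2.48 and 1.60. Among the members that did not pass were Ly6g at 0.41, Mpo at -0.10, Elane at -0.03, Ngp at 0.09 and Camp at 0.13, which were chosen after their values were seen. S100a8, S100a9, Stfa2l1 and Lcn2 stand on this list and on the epidermal lists above, and the part of neutrophils in their rises was not tested.

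Of 26 myeloid lectins, Fc and Trem receptors 13 rose and 3 fell, with a median of 0.69. Clec4e, for the receptor Mincle, which senses fungal glycolipids and dead cells, read 3.31, 3.08, 3.38, 3.16 and 3.19 in the mock-treated and 6.14, 6.50, 4.57, 8.45 and 5.04 in the imiquimod-treated knockouts. It was highest in imiquimod replicate 4, and its rise of 2.92 ± 0.44 (adjusted p = 8.29e-05) was 2.34 without that array (adjusted p = 6.51e-06, limma). Clec4d rose by 2.13 ± 0.41 and Clec4n by 1.90 ± 0.23. Mgl2, a lectin of dermal dendritic cells and of macrophages of the resting type, went down from 6.29, 7.09, 7.27, 6.24 and 6.09 to 4.01, 4.81, 4.65, 4.46 and 5.03, a fall of 2.0 ± 0.25 (adjusted p = 7.11e-06, limma). The related Clec10a and Cd209d fell by 0.95 ± 0.28 and 0.82 ± 0.21, and without the 4 libraries neither passed (adjusted p = 0.403 and adjusted p = 0.331), nor did Clec10a without mock replicate 2 or imiquimod replicate 4 alone.

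Among 18 markers of monocytes and macrophages 4 rose and 1 fell, with a median of 0.21. The macrophage surface receptor gene Adgre1 rose by 1.18 ± 0.25 (0.77 with hair genes as a covariate) and Marco, a scavenger receptor, by 0.91 ± 0.24. The fall was the largest of all genes tested: Retnla, a secreted product of alternatively activated macrophages, read 8.72, 9.77, 9.10, 9.12 and 8.42 in the mock-treated and 3.60, 3.93, 3.97, 3.72 and 5.01 in the imiquimod-treated knockouts. No array overlapped, and the difference was -4.98 ± 0.46, or 31.6-fold lower (adjusted p = 2.32e-07, limma). Retnla is also expressed in fat, and the adipocyte markers given below moved in the same direction, so the part of either source was not tested.

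Of 18 inflammasome and pyroptosis genes 4 rose and none fell, with a median of 0.15. Gsdmc, a pore-forming gasdermin, read 6.86, 6.31, 6.45, 5.47 and 5.12 and 8.98, 9.82, 9.87, 9.30 and 9.74 and rose by 3.50 ± 0.29 (adjusted p = 4.07e-08, limma). Its neighbours Gsdmc3 and Gsdmc2, which may share probe signal with it, rose by 1.50 ± 0.22 and 1.26 ± 0.24, and Aim2, a DNA sensor, by 1.28 ± 0.20. Of 23 matrix proteases and their inhibitors 8 rose and 2 fell, with a median of 0.14, and 5 rose and 1 fell without the 4 libraries. Timp1, an inhibitor of metalloproteases, read 4.27, 4.70, 4.74, 4.36 and 4.62 in the mock-treated and 6.66, 6.91, 5.91, 8.02 and 5.34 in the imiquimod-treated knockouts and rose by 2.03 ± 0.32 (adjusted p = 1.30e-04, limma). Mmp8, the neutrophil collagenase, rose by 1.68 ± 0.35, or by 0.99 without the 4 libraries (adjusted p = 0.0215). Timp3, which is held in the matrix, read 9.46, 9.68, 9.88, 9.86 and 10.01 and 8.35, 7.97, 8.34, 8.54 and 8.12 and fell by 1.51 ± 0.14 (adjusted p = 2.48e-07, limma). Both inhibitors were clear of overlap, in opposite directions.

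Some antigen presentation and interferon genes fell, and 1 of the former rose. Of 13 genes of MHC class II presentation 1 rose and 5 fell, with a median of -0.16, and 1 rose and 2 fell without the 4 libraries. H2-Aa, a class II chain of dendritic cells, Langerhans cells and B cells, read 8.30, 9.04, 8.78, 8.55 and 8.38 in the mock-treated and 6.63, 7.39, 7.12, 7.26 and 7.44 in the imiquimod-treated knockouts, a fall of 1.44 ± 0.23 (adjusted p = 1.68e-04, limma). H2-Ab1 and H2-Eb1 fell by 1.36 ± 0.29 and 1.15 ± 0.24 and did not pass without the 4 libraries (adjusted p = 0.130 and adjusted p = 0.110). Cd80, a co-stimulatory ligand, rose by 1.04 ± 0.26. Of 13 dendritic and Langerhans cell markers none rose and 5 fell, with a median of -0.33, among them the 3 class II chains. Without imiquimod replicate 1 the count was 3, and without the 4 libraries it was 1. Cd207, for langerin, stood at -0.45 and Itgax at -0.30, and neither passed.

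Of 25 genes of the type I interferon response none rose and 7 fell, with a median of -0.39. Without the 4 libraries 1 fell, no more than the share of all genes in that setting. Usp18, which removes ISG15 from proteins, read 5.83, 6.40, 7.05, 6.43 and 6.93 after mock and 5.21, 5.28, 5.12, 5.67 and 5.31 after imiquimod treatment, a fall of 1.21 ± 0.24 without overlap (adjusted p = 9.21e-04, limma). Ddx60 fell by 0.96 ± 0.20 and Cmpk2 by 0.74 ± 0.20, and neither passed without the 4 libraries (adjusted p = 0.0813 and adjusted p = 0.190). Of 18 complement genes 2 rose and 3 fell, close to the shares of all genes, at a median of 0.03. C3ar1, the C3a receptor of myeloid cells, rose by 1.32 ± 0.23. Without mock replicate 3 alone 4 complement genes rose, and without imiquimod replicate 2 alone 1 rose.

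Of 18 T and NK cell markers 1 rose and 3 fell, against 11.1% and 9.71% of all genes, with a median of -0.14. Without the 4 libraries none rose and 1 fell. Cd3g, a chain of the T cell receptor complex, read 6.72, 7.33, 7.48, 6.76 and 6.81 in the mock-treated and 5.17, 5.97, 5.51, 5.83 and 5.90 in the imiquimod-treated knockouts, a fall of 1.34 ± 0.23 with no overlap (adjusted p = 3.21e-04, limma), and its difference was -0.87 with muscle genes as a covariate. Cd3e fell by 0.78 ± 0.21 and did not pass without the 4 libraries (adjusted p = 0.271). Mouse epidermis holds dendritic epidermal T cells, whose development needs Skint1, and the Skint family is expressed in keratinocytes and thymus. Of its 11 members 9 fell and none rose, with a median of -1.59. Skint5 read 5.90, 6.61, 7.16, 5.57 and 6.01 after mock and 2.05, 3.23, 2.99, 3.40 and 4.16 after imiquimod, a fall of 3.08 ± 0.37 (adjusted p = 4.91e-06, limma), and Skint9 read 7.97, 8.34, 8.35, 7.71 and 7.40 and 3.45, 5.02, 5.53, 5.90 and 6.57, a fall of 2.66 ± 0.45 (adjusted p = 2.61e-04). For both, every imiquimod array lay below every mock array. Skint3 and Skint11 stood at 0.18 and -0.10. The genes are close copies in 1 cluster, so their signals may not be separate.

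Ligands of the EGF receptor, which drive keratinocyte growth, rose while the receptor fell. Epgn, for epigen, read 6.45, 5.37, 7.15, 6.04 and 6.52 in the mock-treated and 9.24, 9.25, 8.42, 8.81 and 8.14 in the imiquimod-treated knockouts and rose by 2.47 ± 0.28 (adjusted p = 2.65e-06, limma). Ereg rose by 2.08 ± 0.28 and Hbegf by 2.08 ± 0.25. Egfr fell by 0.50 ± 0.14 (adjusted p = 0.0111), with a difference of -0.75 without the 4 libraries and -0.26 with hair genes as a covariate, and Lrig1, a feedback inhibitor of the receptor and a stem cell marker of the follicle, fell by 0.72 ± 0.14 (adjusted p = 8.63e-04, limma). In all 5 of the 16 genes of this list rose and 4 fell, with a median of -0.16.

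Of 25 junction genes 6 rose and 6 fell, at a median of 0.10. Dsg1b, a desmoglein of the upper epidermis, read 7.87, 7.51, 7.30, 7.56 and 7.33 and 9.22, 9.66, 9.62, 9.55 and 9.34 and rose by 1.96 ± 0.13 (adjusted p = 2.02e-09, limma). Dsg2, a desmoglein of simple epithelia and follicle cells, read 7.72, 7.58, 7.27, 7.77 and 7.87 and 6.99, 6.30, 6.18, 6.40 and 6.34 and fell by 1.20 ± 0.19 (adjusted p = 1.35e-04, limma), with a difference of -0.61 in the mean of its probe sets. Gjb6, for connexin 30, rose by 2.20 ± 0.56, which did not pass without the 4 libraries (adjusted p = 0.240). Cldn4, for a claudin of tight junctions, fell, at -0.74 (-0.41 with hair and -1.11 with muscle genes as a covariate).

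Some collagen and fibroblast genes fell. Of 18 collagen chains none rose and 5 fell, with a median of -0.22; without the 4 libraries 1 fell. Col14a1, a collagen on the surface of fibrils, read 7.71, 8.31, 7.78, 7.75 and 7.45 in the mock-treated and 6.49, 6.59, 6.73, 6.31 and 6.68 in the imiquimod-treated knockouts, a fall of 1.24 ± 0.21 with no overlap (adjusted p = 2.08e-04, limma). Col1a1 and Col1a2, for the main collagen of the dermis, fell by 0.93 ± 0.25 and 0.86 ± 0.23 and did not pass without the 4 libraries (adjusted p = 0.368 and adjusted p = 0.304). Of 16 fibroblast markers none rose and 6 fell, with a median of -0.37, and 1 fell without the 4 libraries. Fn1, for fibronectin, fell by 1.20 ± 0.21, from 9.44, 10.11, 10.04, 9.76 and 9.37 to 8.39, 8.91, 8.52, 8.70 and 8.21 (adjusted p = 4.26e-04, limma). Pdgfra and Vim, chosen after their values were seen, stood at 0.21 and -0.004 and did not pass.

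Of 17 genes of hyaluronan and glycosaminoglycans 5 rose and 3 fell, at a median of -0.004. Has3, a hyaluronan synthase, rose by 1.31 ± 0.16, and Ogn, a small proteoglycan of the matrix, fell by 1.48 ± 0.21. Tnc, for tenascin-C of remodelling matrix, read 7.67, 7.45, 5.75, 7.55 and 7.99 and 9.09, 9.56, 9.03, 10.13 and 8.27, with mock replicate 3 lowest. Its rise of 1.93 ± 0.44 (adjusted p = 0.00337) did not pass without the 4 libraries (adjusted p = 0.113, limma). Of 17 endothelial and pericyte markers 5 rose and 1 fell, with a median of 0.22, and 2 rose without mock replicate 2. Selp, for P-selectin, rose by 0.80 ± 0.22. Of 16 genes of arginine, nitric oxide and polyamine metabolism 4 rose and 2 fell, with a median of 0.14. Smox, a spermine oxidase, rose by 1.41 ± 0.17 and Slc7a2, an arginine transporter, fell by 1.04 ± 0.24, not without the 4 libraries (adjusted p = 0.106).

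Hair genes varied widely between animals. Of 28 hair follicle and shaft genes none rose and 1 fell, although the median was -2.10. The 1 was Gata3, at -0.86 (-0.47 in the mean of its probe sets). Krtap8-1, a keratin-associated protein of the shaft, is an example: it read 11.75, 10.15, 6.21, 11.77 and 11.93 in the mock-treated and 10.98, 6.46, 5.52, 8.71 and 4.81 in the imiquimod-treated knockouts. Mock replicate 3 was low and imiquimod replicate 1 high. Without mock replicate 3 alone 15 of the 28 fell, without imiquimod replicate 1 alone 4 fell, and without the 4 libraries 25 fell at a median of -4.57. The arrays left out were chosen by these same genes, so the larger fall is built in and is no separate result. Of 29 genes of Wnt, Hedgehog and Notch signalling 2 rose and 5 fell, against 11.1% and 9.71% of all genes, with a median of -0.26. Lgr5, a marker of follicle stem cells, read 7.77, 8.27, 6.66, 7.82 and 7.96 and 6.45, 5.60, 6.16, 5.51 and 5.89 and fell by 1.77 ± 0.33 (adjusted p = 5.84e-04, limma), with a difference of -0.97 in the mean of its probe sets, and Wnt3 fell by 1.10 ± 0.16. Of 18 sebaceous gland genes 7 rose and 2 fell, with a median of 0.17. Awat1, a wax synthase, rose by 2.0 ± 0.29 and Scd3, a desaturase, fell by 1.98 ± 0.29, both with no overlap. Of 12 melanocyte markers 2 fell and none rose, with a median of -0.30, and Mitf, the regulator of the lineage, fell by 1.19 ± 0.26 with overlapping arrays (difference -0.68 with hair genes as a covariate).

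**Figure D4:**
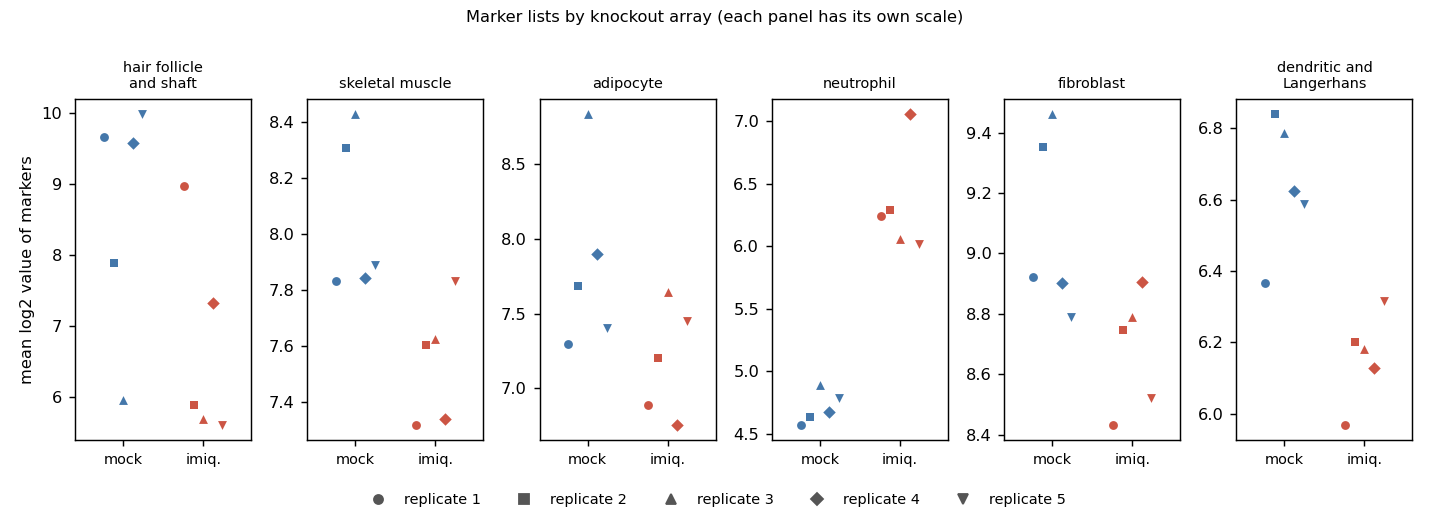
Mean log2 value over the markers of 6 tissues or cell types in each knockout array, mock-treated in blue and imiquimod-treated in red, with marker shapes for replicates 1 to 5; each panel has its own vertical scale. Hair genes range from 5.95 to 9.98 in mock arrays and from 5.61 to 8.96 in imiquimod arrays and overlap. The neutrophil and the dendritic and Langerhans cell means of the groups are separate, and the muscle means only just. Mock replicates 2 and 3 are the highest for muscle.

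Genes of the muscle and fat below the dermis also read unequally between arrays. The mean over 25 skeletal muscle genes was 7.83, 8.30, 8.43, 7.84 and 7.89 in the mock-treated and 7.32, 7.60, 7.63, 7.34 and 7.83 in the imiquimod-treated knockouts. The groups did not overlap, but the lowest mock mean, 7.832, and the highest imiquimod mean, 7.8304, nearly met. Of these genes 2 rose and 12 fell, with a median of -0.74; 7 fell without mock replicate 3, and 2 without the 4 libraries, at a median of -0.23. Pvalb, the calcium buffer of fast fibres, read 7.83, 8.80, 9.08, 7.84 and 7.67 and 5.80, 6.17, 6.11, 6.13 and 6.72 and fell by 2.06 ± 0.37 (adjusted p = 4.46e-04, limma), highest in mock replicates 2 and 3. Myh2, a myosin chain, rose by 1.18 ± 0.24. Mstn, for myostatin, a muscle growth inhibitor, was among the largest falls of all genes, from 7.81, 8.53, 8.61, 7.07 and 7.69 to 4.33, 5.39, 4.76, 3.91 and 5.68, a difference of -3.13 ± 0.48 (adjusted p = 8.10e-05, limma), and Mylk4 fell by 2.12 ± 0.31. Both are muscle genes, and with the mean of the muscle genes as a covariate their differences were -1.95 and -1.32, and that of Pvalb was -1.09. Pvalb is itself a member of that mean, so its smaller difference there is in part built in.

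The mean over 15 adipocyte genes was 7.30, 7.69, 8.84, 7.90 and 7.41 after mock and 6.89, 7.21, 7.65, 6.76 and 7.45 after imiquimod treatment, highest in mock replicate 3. Of these genes 1 rose and 7 fell, with a median of -0.76, and 1 fell without the 4 libraries, at a median of -0.18. Fabp4, the fatty acid carrier of fat cells, read 10.54, 10.79, 11.70, 11.39 and 10.94 and 9.36, 9.68, 10.20, 9.34 and 9.88 and fell by 1.38 ± 0.21 (adjusted p = 6.34e-05, limma). Lep, for leptin, fell by 1.22 ± 0.28 and did not pass without the 4 libraries (adjusted p = 0.124).

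Of 16 genes of the circadian clock 3 rose and 8 fell, with a median of -0.36, and both counts were 2 without the 4 libraries. Bhlhe41, a repressor in the clock, read 5.17, 5.44, 5.90, 5.47 and 5.56 in the mock-treated and 4.35, 4.32, 4.75, 4.41 and 4.62 in the imiquimod-treated knockouts and fell by 1.02 ± 0.15 (adjusted p = 4.74e-05, limma). Dbp, a clock output factor, read 7.63, 7.91, 8.58, 7.69 and 7.97 and 6.47, 6.93, 7.35, 7.09 and 7.33 and fell by 0.92 ± 0.22 (adjusted p = 0.00409), which did not pass without the 4 libraries (adjusted p = 0.150, limma). Without mock replicate 2 alone 4 members fell. The labels used here name no clock hour of sampling, and its part was not tested.

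Other large falls belonged to no list. Mrgprb3, a Mas-related G protein-coupled receptor gene, read 6.51, 7.13, 7.35, 6.16 and 6.29 in the mock-treated and 3.14, 3.54, 3.33, 3.11 and 3.75 in the imiquimod-treated knockouts, a fall of 3.31 ± 0.33 (adjusted p = 5.58e-07, limma). Serpina3b, a serine protease inhibitor, read 9.60, 9.72, 9.85, 9.13 and 8.52 and 5.92, 6.97, 7.92, 4.11 and 7.89, lowest in imiquimod replicate 4, and fell by 2.80 ± 0.52 (adjusted p = 5.73e-04, limma), with a difference of -1.49 without the 4 libraries (adjusted p = 0.0102). For both genes the groups were separate. Dapl1 fell by 2.62 ± 0.34, Bbox1, the last enzyme of carnitine synthesis, by 2.53 ± 0.27, the semaphorin gene Sema3d by 2.35 ± 0.24 and Fcgbp by 2.16 ± 0.39. Of 16 mast cell, basophil and eosinophil markers 1 rose and 2 fell, close to the shares of all genes, at a median of -0.07. The receptor gene Kit fell by 0.92 ± 0.19, while the mast cell proteases Cma1 and Mcpt4 stood at -0.08 and -0.11 and did not pass. Kit is also on the melanocyte list and is 1 of the 2 falls counted there. Of 11 B and plasma cell markers none passed in either direction in limma's test.

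The response was set against that of the floxed controls, which ran in the same fit on separate animals. In controls 1435 genes rose (6.47%) and 969 fell (4.37%). Of the genes that rose in knockouts 1138 also rose in controls, which is 46.4% of the knockout and 79.3% of the control list, and of those that fell 739 also fell in controls, 34.3% and 76.3%. A limma test of the difference, knockout minus control response, passed for 4 genes on the positive side (0.0180%) and 0 on the negative side (0.00%). At an unadjusted p below 0.05 there were 1497 genes. The side is the sign of the difference and not the size of the response, so a deeper fall in knockouts counts as negative. Positive differences numbered 8 without imiquimod-treated knockout replicate 3 and 7 without replicate 4. Negative ones numbered 1 when mock-treated control 5 or imiquimod-treated control 3 was left out and 2 without imiquimod-treated knockout replicate 5. Most genes called in 1 genotype alone are thus not shown to respond differently. For Il1b the responses were 3.09 and 0.81 (adjusted p of the difference 0.333), for Clec4e 2.92 and 0.33 (0.333), and for Flg2 -2.27 and -0.30 (0.228, limma).

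Arg1, for arginase 1, which splits arginine to ornithine and urea, was the 1 gene of the 4 whose mean moved in opposite directions. It read 7.50, 7.55, 7.39, 7.31 and 7.61 in the mock group and 6.34, 6.42, 6.47, 6.15 and 6.74 in the imiquimod group of controls. The knockouts had 6.87, 6.68, 6.74, 6.95 and 7.42 after mock and 7.40, 7.84, 7.42, 7.49 and 7.27 after imiquimod. All imiquimod-treated controls lay below all mock-treated controls, whereas in knockouts mock replicate 5 overlapped the imiquimod arrays. The responses were -1.05 ± 0.13 in controls and 0.55 ± 0.13 in knockouts (SE), and their difference was 1.60 ± 0.19 (adjusted p = 7.23e-04, limma). The rise within knockouts passed (adjusted p = 0.00513) but not without the 4 libraries (adjusted p = 0.116).

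Fetub, for fetuin-B, an inhibitor of astacin proteases made mainly in liver, read 4.03, 3.92, 4.24, 4.01 and 4.24 and 5.34, 5.42, 5.91, 5.60 and 5.25 in controls, mock first, and 4.46, 4.38, 3.84, 3.87 and 4.14 and 7.32, 8.11, 7.76, 7.04 and 7.88 in knockouts. Imiquimod-treated knockouts exceeded every other array. The responses were 1.42 ± 0.18 and 3.48 ± 0.18, with a difference of 2.07 ± 0.25 (adjusted p = 7.23e-04, limma).

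Il19 read 4.45, 3.92, 4.36, 4.18 and 4.61 in mock-treated and 4.79, 4.71, 4.41, 4.65 and 4.35 in imiquimod-treated controls, next to the knockout values given above. Control arrays of both treatments overlapped, and the response was 0.28 ± 0.23 in controls against 2.53 ± 0.23 in knockouts, a difference of 2.25 ± 0.32 (adjusted p = 0.00549, limma). Cdhr1, a cadherin-related gene known from photoreceptors, read 4.32, 4.58, 4.41, 4.43 and 4.63 and 4.82, 4.73, 5.14, 4.82 and 4.74 in controls and 4.58, 4.35, 4.63, 4.68 and 4.63 and 5.79, 6.09, 5.70, 6.18 and 6.03 in knockouts. Its responses were 0.38 ± 0.10 and 1.38 ± 0.10, a difference of 1.01 ± 0.15 (adjusted p = 0.00549, limma). Without the 4 libraries the differences for Il19 and Cdhr1 did not pass (adjusted p = 0.144 and adjusted p = 0.101), while those for Fetub and Arg1 did (adjusted p = 1.53e-04 and adjusted p = 0.0194).

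**Figure D5:**
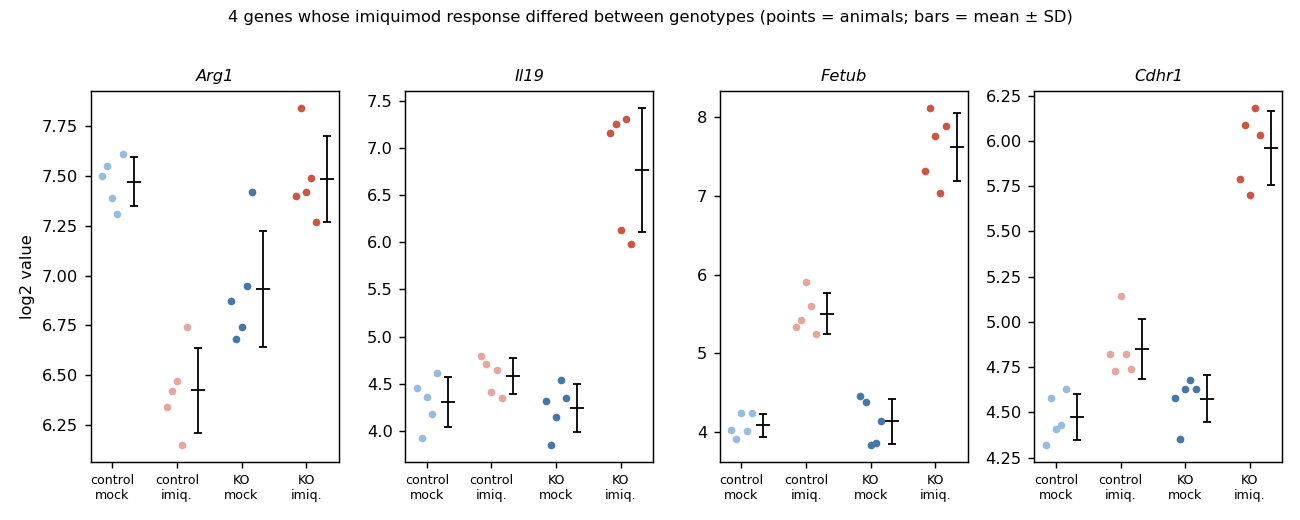
Log2 values of Arg1, Il19, Fetub and Cdhr1 in the 4 groups of 5 animals (points), with the mean ± SD beside each group; vertical scales differ between panels. Arg1 is lower after imiquimod in controls and not in knockouts, and the imiquimod-treated knockouts are the highest group for Il19, Fetub and Cdhr1.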

How the data were processed

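Gene expression was measured in 20 abdominal skin samples on Affymetrix arrays, 5 per group, after Trizol and column extraction and labelling of 200 ng RNA, per the labels' protocols. The authors deposited 1 value for each of 41345 probe sets and array, read here as log2 because the values run from 1.41 to 13.33 with array medians from 4.94 to 5.04; log base, summarisation and normalization were not given in the sources used here. No detection calls were used. Probe sets were named through the platform's annotation: 23521 had 1 symbol, 1814 had several and 16010 had no entry. Entrez identifiers matched RefSeq (GRCm38.p6) for 23328, and 0 symbols changed. The brightest probe set over all 20 arrays stood for each of 22180 genes (1082 genes had several).

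Groups were compared in R 4.3.3 with limma 3.58.1 (lmFit, eBayes; 4 group means, 16 residual degrees of freedom, prior 3.99), two-sided, with Benjamini-Hochberg adjustment over all genes and a threshold of 0.05. The comparisons were the imiquimod response of knockouts and the difference between the responses of the genotypes. Errors of differences are standard errors from this fit, and folds are antilogs. In simulated data for the knockout comparison with 22180 genes, 43 of 67 changes of 0.5 were recovered (64.2%), 62 of 67 of 1 (92.5%) and 64 of 66 of 2 (97.0%), with 5 false calls. Only these genes were changed, and errors were normal and independent between genes. Tissue differences shared by many genes were not simulated, so these rates may not hold for the real arrays.

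The members and the 48 gene and 17 marker lists were chosen with earlier results of these data known; 73 of their 1108 genes stand in more than 1. Genes were named by rule: the 20 largest rises and 20 largest falls with separate arrays, provisional symbols left out, up to 3 rises and 3 falls per list (or the 2 smallest p where none passed), up to 8 of the largest differences between genotypes in each direction, and Zfp36, Zfp36l1, Zfp36l2, Tnf, Tlr7 and Krt14. The text gives part of these. A further 28 genes, such as Krtap8-1, Ly6g and Tchh, were named after their values were seen.

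Replicate numbers were not taken as pairs: the deviations of same-numbered knockout arrays from their group means correlated at 0.39, 0.16, 0.31, -0.09 and -0.31. Alternatives were the 10 knockout arrays alone, the replicate number as a block, other variance priors, array weights, quantile normalization, median centring, the mean or each of a gene's probe sets, the 30% dimmest genes left out, tissue covariates, and arrays left out singly, as 2 or as 4.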

Additional observations from a re-analysis of the deposited data

Results flagged for a closer look

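The response to imiquimod differed between the genotypes, by the test of the difference itself in limma, for 4 genes. The knockout response exceeded the control response by 2.25 for Il19, 2.07 for Fetub, 1.60 for Arg1 and 1.01 for Cdhr1.

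In 456 groups of 5 knockout arrays (211 genes named in the text and 17 marker means, mock and imiquimod apart), 1 array lay far from the other 4 by Dixon's test in 25. Chance alone gives about 1 such flag in 20 groups. Imiquimod replicate 4 was that array in 6 of them. It was the highest for the myeloid genes Cd14 (8.69 against 5.94 to 6.65), Csf3r (7.92 against 5.50 to 6.12) and Cxcl3 (7.43 against 3.26 to 4.38) and for the mean of the neutrophil markers (7.06 against 6.02 to 6.29). It was the lowest for Sprr4 (7.89) and for the mean of the mammary epithelium markers (4.08).

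Mock replicate 3 was flagged in 6 groups: it was the lowest for Tnc (5.75), Klk6 (6.25), Sprr1a (9.19), Il17f (4.95) and Zfp36l1 (8.76) and the highest for Gsta4 (6.68). Mock replicate 1 was the highest for Casp14 (9.72) and Has3 (5.71) and the lowest for Ier3 (7.45). Mock replicate 2 was the lowest for Insig1 (8.28), and mock replicate 5 was the highest for S100a8 (6.30) and S100a9 (6.12). Imiquimod replicate 1 was the highest for Dsg2 (6.99) and for the mean of the melanocyte markers (6.26) and the lowest for Ogn (7.08) and Psat1 (7.10). Imiquimod replicate 2 was the highest for Stfa1 (12.03) and the lowest for Wnt3 (5.34), and imiquimod replicate 5 was the highest for Retnla (5.01).

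Probe sets without a single gene symbol were used in no comparison. In a fit over all 41345 probe sets, 541 of these 17824 rose and 703 fell after imiquimod in knockouts. Both are smaller shares than the 11.1% and 9.71% of the 22180 genes tested in the main fit.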

How the results depend on the processing

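Over 35 alternatives the 2451 rises in knockouts ranged from 1643 (4 libraries left out) to 2764 (array weights), and the 2154 falls from 1360 (4 libraries left out) to 2648 (hair genes as a covariate). With 1 array left out they ranged from 1957 to 2604 and from 1692 to 2348. With the replicate number as a block 2254 genes rose and 1976 fell. In deviations from the group means, 1 of the 5 mock arrays correlated best with the imiquimod array of its own number. Positive differences between the responses (main count 4) numbered 7 with array weights and 7 with hair genes as a covariate, and 4 to 8 with 1 array left out. Negative differences (main count 0) numbered 1 with array weights, 5 with hair and 2 with muscle genes as a covariate, and 0 to 2 with 1 array left out. The cause was not tested. Zfp36 in mock-treated knockouts against controls ranged from -2.45 to -1.54 with 1 array left out, and without control mock replicate 3 it was -1.96 (exact p = 0.0556). No named gene past the threshold turned direction under the alternatives run. The responses of Tlr7 and Zfp36l2, which had not passed, turned sign under some of them, as did the median of 17 of the 65 lists, such as the stress and simple epithelial keratins (-0.17, and 0.03 with fat genes as a covariate). Of the 179 called genes named by the rule in the text, 27 lost their call without the 4 libraries, where 3 arrays remained per knockout group, and 6 without some single array. Among 260 results for all genes named by the rule, 58 lost their call without the 4 libraries. With muscle genes as a covariate 37 did, with fat genes 33 and with hair genes 8. Gjb6 and Cxcl3 lost theirs with muscle and with fat genes, and Ccr1 with each of these covariates. Signal over background is not known here, so folds of dim genes such as Csta3 are uncertain.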
